A study of Mus musculus with 62 samples.

Results

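Lungs of BALB/cJ and C57BL/6J mice that had been sensitised to a house dust mite allergen and then challenged with PBS alone were compared across all 16715 transcript clusters of an exon array, each cluster being the set of exons the array assigns to a locus. The comparison held 22 of the 48 mice in the series, 11 of each strain, and 26 of its 62 arrays. The mice were chosen by their sample titles, which name the strain and the control treatment. Of these mice 2, both BALB/cJ, had 3 arrays each, and the arrays of a mouse were averaged before anything else was done.

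All mice were male, and both groups had received 10 µg of Der p 1, a protease allergen of house dust mites, into the peritoneum on days 1 and 8. Control mice were given PBS on day 15. RNA came from the right lower lobe taken on day 18, which was 72 h later. Both control groups therefore had sensitised lungs, and no group without sensitisation is used here. The labels name no transgene or other engineered allele, and their age does not appear in the labels. Challenged mice, 14 BALB/cJ and 12 C57BL/6J, received 50 µg of Der p 1 on day 15 in place of PBS. They serve below as other mice in which a strain difference can be looked up. They also entered the statistical fit, and so share in the error estimate of the control difference. Per the series title, the study set airway responsiveness against inflammation in these strains; the comparison of controls gives the strain difference that was present without an allergen challenge.

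BALB/cJ and C57BL/6J are inbred strains with different haplotypes of the major histocompatibility complex (MHC), d in BALB/c and b in C57BL/6. Class II molecules of this complex, I-A and I-E, are pairs of an alpha and a beta chain that present peptides to CD4+ T cells, and C57BL/6 mice make no I-E because the alpha chain gene has lost its promoter. The conducting airways of the mouse lung are lined mainly by secretory club cells and by ciliated cells, and goblet cells that secrete mucus appear after allergen.

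Levels are the deposited log2 values, differences are BALB/cJ minus C57BL/6J on the log2 scale ± standard error, and a cluster passed at an adjusted p under 0.05 by limma over all clusters, with the number series as a covariate. The number series is the first digit, 5 or 6, of the number each mouse has in its title; the labels do not say what it marks. Each strain had 5 controls of series 5 and 6 of series 6, so this covariate changes the error of the difference and not the difference itself. Array medians of the controls lay between 6.40 and 6.56, and the SD over the clusters of an array was 1.943 ± 0.061 in BALB/cJ and 1.961 ± 0.113 in C57BL/6J. Principal component 1 of the 22 controls held 32.9% of the variance, of which 73.3% lay between the number series and 0.335% between strains; the SD over the clusters of an array accounted for 83.3% of it (r squared). Component 2 held 13%, of which 91.8% lay between strains, and it separated every BALB/cJ from every C57BL/6J mouse. A pair of mice stood apart. The BALB/cJ control mouse633 lay at least 1 above all 10 other mice of its group in 144 clusters, and the C57BL/6J control mouse531, whose array had the lowest SD over clusters (1.697), lay at least 1 above its group in 115 clusters and at least 1 below it in 217. Among the remaining controls mouse530 had the next lowest SD, at 1.799. The arrays read as lung: Sftpc, surfactant protein C of alveolar type II cells, lay between 12.80 and 13.75 in all 22 controls, and Ager, of alveolar type I cells, between 11.63 and 12.41.

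Of the 16715 clusters, 1126 passed (6.74%). In BALB/cJ 446 were higher (2.67% of all clusters) and 680 lower (4.07%), so 60.4% of the calls were lower. The difference was at least 1.5-fold in 400 (2.39%) and at least 2-fold in 111 (0.664%), 39 of these higher and 72 lower. The median absolute difference was 0.484 over the 1126 and 0.093 over all clusters. In 131 clusters (0.784%) the 11 BALB/cJ mice did not overlap the 11 C57BL/6J mice, 58 higher and 73 lower, and all 131 passed. Without mouse633 1121 clusters passed (6.71%), 1029 of them among the 1126, and without mouse531 1194, 1040 of them among the 1126. Of the 1126, 1007 carry 1 gene symbol, 74 several and 45 none; clusters with several symbols are not named, and among them and those with none the largest differences were 3.02 and −3.75.

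**Figure D1:**
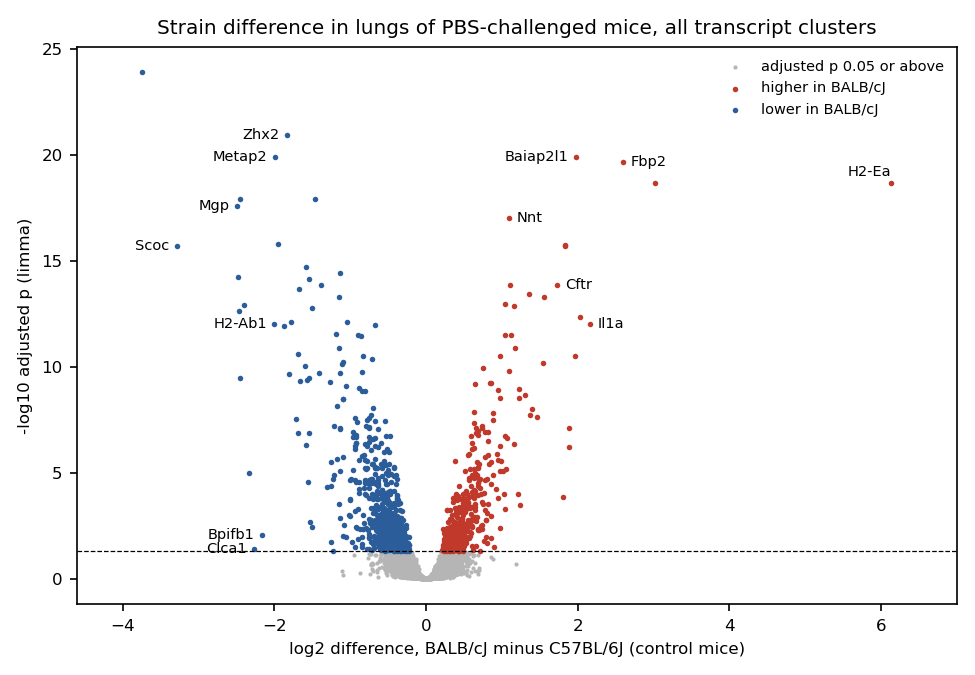
Each point is 1 transcript cluster, with the log2 difference between 11 BALB/cJ and 11 C57BL/6J control mice on the horizontal axis and −log10 of the adjusted p from limma on the vertical axis; the dashed line marks an adjusted p of 0.05. H2-Ea lies farthest to the right at 6.13, and 680 of the 1126 clusters above the line lie on the left.

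Among named genes, H2-Ea, which encodes the alpha chain of I-E, had the largest difference. Its level in BALB/cJ was 10.32 at the lowest, 11.16 at the median and 11.92 at the highest mouse, against 3.67, 4.63 and 6.84 in C57BL/6J. The groups lay far apart, by 6.13 ± 0.35 (adjusted p = 2.07e-19).

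The next highest in BALB/cJ were Fbp2, the muscle form of the gluconeogenic enzyme fructose bisphosphatase, and Il1a, the cytokine interleukin 1 alpha. Fbp2 ranged from 7.77 to 8.70 (median 8.07) in BALB/cJ and from 5.11 to 6.11 (median 5.39) in C57BL/6J, with no overlap and a difference of 2.60 ± 0.14 (adjusted p = 2.03e-20). For Il1a the range was 6.88 to 8.36 (median 7.30) in BALB/cJ and 4.62 to 5.96 (median 5.33) in C57BL/6J, again with every BALB/cJ mouse above every C57BL/6J mouse (2.16 ± 0.19, adjusted p = 9.53e-13). Other genes of this cytokine system, looked up after the value of Il1a was seen, did not pass: Il1b, interleukin 1 beta, differed by −0.17 ± 0.20, the antagonist Il1rn by −0.19 ± 0.22 and the receptor Il1r1 by −0.01 ± 0.15.

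Several membrane and signalling genes were also higher in BALB/cJ. Cftr, the chloride channel mutated in cystic fibrosis, lay between 6.23 and 7.45 (median 6.78) in BALB/cJ and between 4.51 and 5.82 (median 5.15) in C57BL/6J, without overlap (1.73 ± 0.13, adjusted p = 1.28e-14). Bdkrb2, the bradykinin B2 receptor, ranged from 6.62 to 8.02 (median 7.41) against 5.48 to 6.85 (median 5.98), so that the groups overlapped at their edges (1.3 ± 0.15, adjusted p = 2.22e-09). Baiap2l1, an actin-binding protein of the plasma membrane, differed by 1.98 ± 0.10, the transport ATPase Atp13a4 by 1.83 ± 0.12, the cell adhesion molecule Nrcam by 1.23 ± 0.14 and the neurturin receptor Gfra2 by 1.23 ± 0.14. None of these 4 overlapped between the groups.

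The rest of the 20 largest rises included enzymes: the aspartic protease cathepsin E (Ctse, 1.96 ± 0.19), the creatine synthesis enzyme Gatm (1.89 ± 0.27), the retinol esterifying enzyme Lrat (1.24 ± 0.25), the phosphatase and transcription coactivator Eya4 (1.35 ± 0.11) and the dehalogenase-like Hdhd3 (1.40 ± 0.17). Tmem252 (2.03 ± 0.17), Veph1 (1.83 ± 0.12), the tubulin folding cofactor Tbcb (1.55 ± 0.12), the LIM domain protein Fhl5 (1.54 ± 0.15), Angptl7 (1.46 ± 0.18) and the interferon-activated gene Ifi202b (1.21 ± 0.22) completed them. In 17 of these 20 the groups did not overlap, the exceptions being Angptl7, Bdkrb2 and Lrat. All 20 passed without mouse633, in each number series alone, and in challenged mice with the same sign. Over all clusters, 0.784% did not overlap, 1.65% passed in series 5 alone, 5.35% in series 6 alone and 27.0% in challenged mice. The 20 were picked as the largest differences in these controls, so their overlap and calls among controls follow in part from that choice. The smallest of the 20 was Ifi202b, and the next gene outside them, Pianp, differed by 1.17.

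Scoc, a coiled-coil protein of the Golgi, was the named gene with the largest difference in the other direction. It ranged from 2.77 to 4.48 (median 3.82) in BALB/cJ and from 5.84 to 7.86 (median 7.06) in C57BL/6J, with no overlap (−3.29 ± 0.22, adjusted p = 1.89e-16). Mgp, matrix Gla protein, an inhibitor of calcification, lay between 7.87 and 9.26 (median 8.26) against 10.36 and 11.34 (median 10.86), also without overlap (−2.49 ± 0.15, adjusted p = 2.5e-18).

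Zhx2 encodes a zinc finger and homeobox protein, and BALB/cJ mice are known to carry a retroviral insertion in it that lowers its transcript in liver. In these lungs it ranged from 5.12 to 6.07 (median 5.84) in BALB/cJ and from 6.82 to 8.08 (median 7.42) in C57BL/6J (−1.83 ± 0.09, adjusted p = 1.1e-21). The groups did not overlap in either number series. Genes that Zhx2 is known to repress in liver were looked up after this value was seen. H19, a noncoding RNA, ranged from 5.28 to 5.83 in BALB/cJ and from 4.69 to 5.50 in C57BL/6J and was higher by 0.62 ± 0.10 (adjusted p = 1.55e-05), while Afp, alpha-fetoprotein (0.01 ± 0.09), and Gpc3, glypican 3 (0.14 ± 0.12), did not pass.

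Further genes with lower levels in BALB/cJ were Metap2, which removes the first methionine from new proteins (−1.99 ± 0.10), Pttg1, securin (−1.96 ± 0.13), and Azgp1, zinc alpha-2 glycoprotein (−1.88 ± 0.17). Upk1b, a uroplakin, ranged from 7.05 to 8.36 (median 7.70) in BALB/cJ and from 8.40 to 10.18 (median 9.67) in C57BL/6J and differed by −1.81 ± 0.19 (adjusted p = 2.26e-10). It had been listed as a mesothelial marker, and 0 of the other 6 measured genes of that list passed, with differences from 0.03 (Krt19) to 0.54 (Msln). The mean level of these 6 lay between 6.82 and 7.95 (median 7.32) in BALB/cJ and between 6.53 and 7.88 (median 7.03) in C57BL/6J, and its part in the Upk1b result was not tested. Nxpe4 (−2.45 ± 0.15) and Nxpe2 (−1.69 ± 0.16), members of one protein family, Gm4956 (−1.72 ± 0.21), the Golgi GTPase Rab6b (−1.68 ± 0.13), the lactate transporter Slc5a12 (−1.66 ± 0.18) and the glycosyltransferase B3gnt3 (−1.58 ± 0.11) were lower as well. So were the killer cell lectin-like receptor gene Klra2 (−1.60 ± 0.16), the olfactory receptor gene Olfr1033 (−1.69 ± 0.22), Ly6d (−1.59 ± 0.22) and Qpct, glutaminyl cyclase (−1.57 ± 0.17). The groups did not overlap in 13 of the 20 largest falls, which also include H2-Ab1, Clca1 and Bpifb1 described below. All 20 kept their sign in both number series. Of them 17 passed in series 5 alone, 18 in series 6 alone and 17 in challenged mice. They too were picked by their size in these controls, from which the results among controls follow in part. The next gene outside the 20 was Vtcn1, at −1.55.

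**Figure D2:**
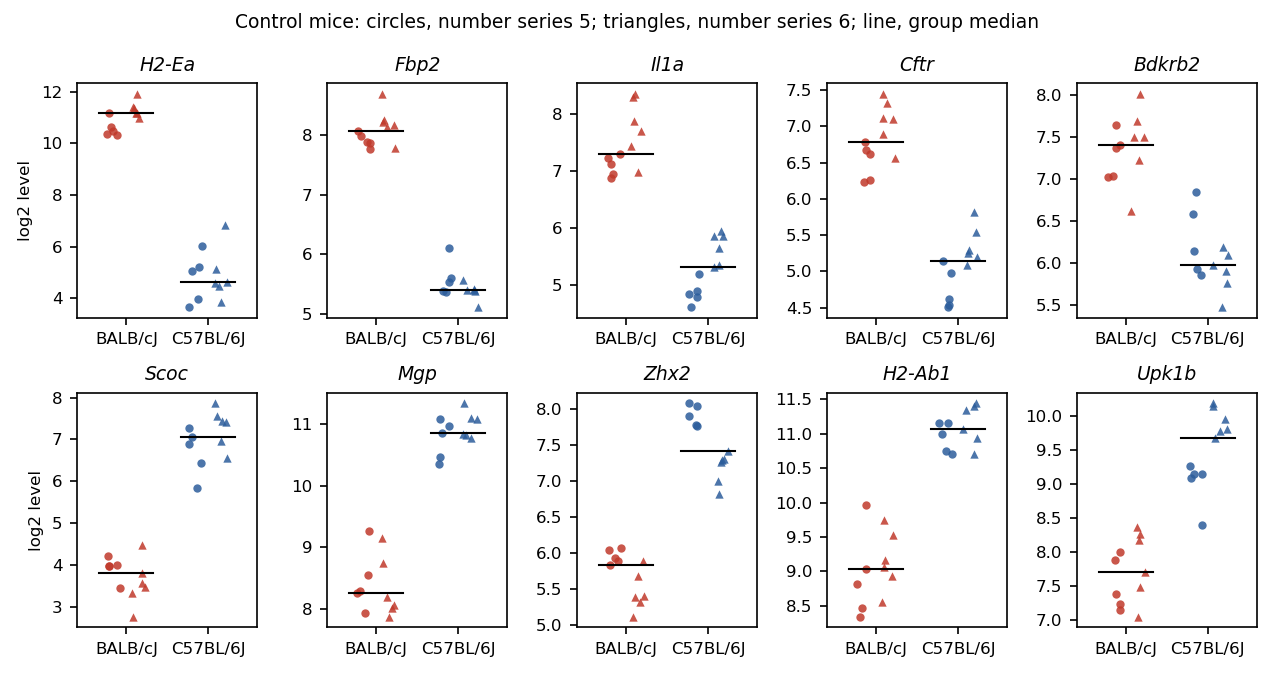
Deposited log2 levels of 10 genes in each of the 22 control mice, BALB/cJ in red and C57BL/6J in blue; circles are mice of number series 5, triangles of series 6, and lines are group medians. The strains do not overlap in 9 of the 10 genes, and in Bdkrb2 they overlap at the edge.

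Genes of the class II pathway moved in opposite directions. Of 13 genes written into the list, 6 were measured by a cluster with 1 symbol; 1 was higher and 5 were lower, with a median of −0.95. Over all 14830 genes, each taken at its brightest cluster, 398 were higher (2.68%) and 602 lower (4.06%), with a median of 0.03.

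H2-Ab1, the beta chain of I-A, ranged from 8.34 to 9.97 (median 9.04) in BALB/cJ and from 10.70 to 11.44 (median 11.07) in C57BL/6J. H2-Aa, the alpha chain of I-A, ranged from 8.84 to 10.02 (median 9.31) and from 10.26 to 10.93 (median 10.58). Cd74, the invariant chain that guides class II molecules to the compartment where peptides are loaded, ranged from 9.62 to 10.67 (median 9.94) and from 10.77 to 11.65 (median 11.11). None of these 3 overlapped, and all lay lower in BALB/cJ, with differences of −2.0 ± 0.17 (adjusted p = 9.11e-13), −1.27 ± 0.14 (4.91e-10) and −1.13 ± 0.15 (8.14e-08). H2-Ab1 and H2-Aa lie in the MHC, whose haplotypes differ between the strains, and whether their probes overlap strain variants was not examined.

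The peptide loading genes H2-DMa (−0.42 ± 0.12, adjusted p = 0.0188) and H2-Oa (−0.78 ± 0.12, adjusted p = 5.64e-06) were lower too, with overlapping groups. All 5 falls and the rise of H2-Ea passed without mouse633, without mouse531 and in challenged mice. In number series 5 alone H2-DMa (adjusted p = 0.621) and H2-Oa (0.0595) did not pass, and H2-DMa did not pass without mouse621 (0.0505). Markers of cells that present antigen are given beside these values: of 13 measured B and plasma cell genes 0 passed (median −0.07), and of 12 dendritic cell genes 1 was higher (Fscn1, 0.46 ± 0.13) and 0 lower (median −0.04). Fscn1 did not pass without mouse633 (adjusted p = 0.0525) or mouse655 (0.0602).

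Class II genes share promoter elements, among them the Y box, an inverted CCAAT motif, and the 2 promoters below are shown because both carry it and both genes were lower in BALB/cJ. The sequences run from 250 bases before to 50 bases after the start site in RefSeq (GRCm38.p6, the C57BL/6J reference) and lie at chr17:34287774-34288073 on the minus strand (H2-Aa) and chr17:34092129-34092428 on the plus strand (H2-Oa); capitals mark the letters CTGATTGG.
H2-Aa: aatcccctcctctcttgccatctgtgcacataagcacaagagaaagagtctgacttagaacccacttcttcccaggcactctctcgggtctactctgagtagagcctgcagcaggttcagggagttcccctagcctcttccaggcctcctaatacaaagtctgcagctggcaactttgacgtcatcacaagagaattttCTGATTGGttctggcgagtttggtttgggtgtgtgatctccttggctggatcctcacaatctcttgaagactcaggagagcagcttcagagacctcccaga
H2-Oa: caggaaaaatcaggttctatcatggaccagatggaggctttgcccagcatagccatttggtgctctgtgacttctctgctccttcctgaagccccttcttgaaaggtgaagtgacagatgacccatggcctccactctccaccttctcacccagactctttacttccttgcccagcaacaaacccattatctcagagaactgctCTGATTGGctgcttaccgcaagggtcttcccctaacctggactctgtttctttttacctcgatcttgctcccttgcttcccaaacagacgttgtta
The motif, searched on both strands, begins 51 bases before the start of H2-Aa and 46 before that of H2-Oa. It was found in 2 of 4 promoters of 3 class II genes in the table, neither of those of H2-DMa holding these letters, and in 4.1% of all 32851 promoters of the same length.

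**Figure D3:**
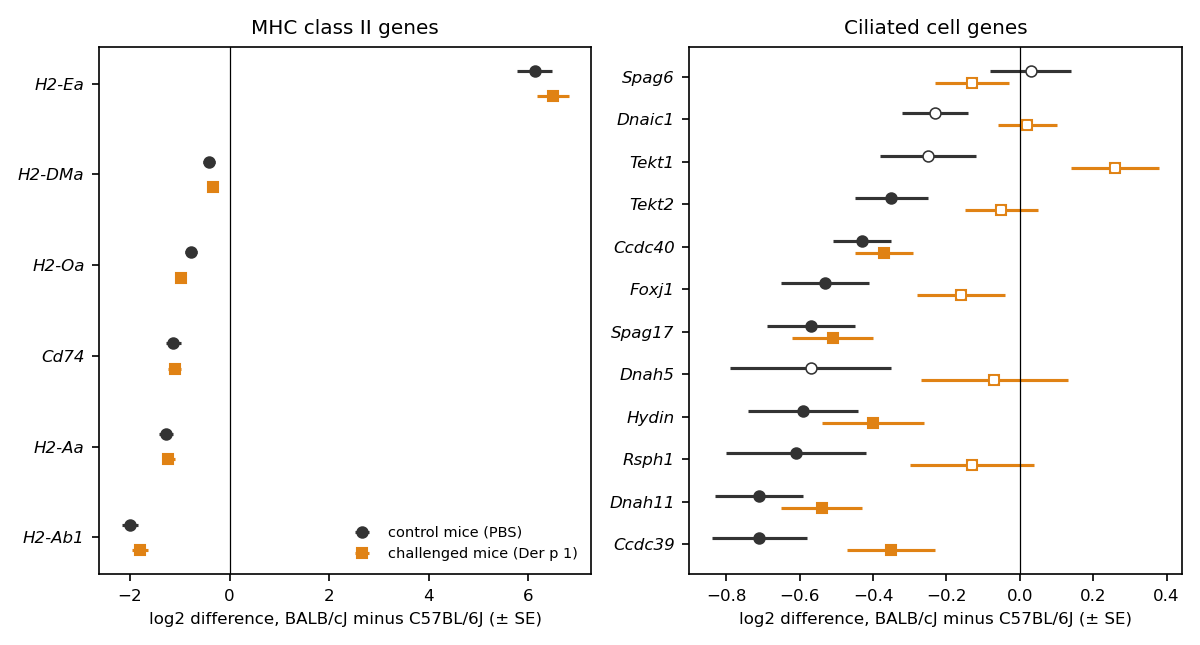
Log2 difference between BALB/cJ and C57BL/6J with its standard error for 6 class II genes and 12 ciliated cell genes, in control mice (dark circles) and in challenged mice (orange squares); open symbols have an adjusted p of 0.05 or above. H2-Ea lies on the right and the other 5 class II genes on the left in both, and 8 of the 12 ciliated cell genes pass in controls against 5 in challenged mice.

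Genes at loci known to differ between inbred strains gave 2 of 22 measured genes higher and 6 lower (median −0.05), beside 2.68% and 4.06% of all genes. Nnt, the mitochondrial transhydrogenase that carries a deletion in C57BL/6J, ranged from 8.69 to 9.22 (median 8.96) in BALB/cJ and from 7.71 to 8.03 (median 7.89) in C57BL/6J, without overlap (1.09 ± 0.07, adjusted p = 8.83e-18). Ifi202b, known to be low in C57BL/6, is the other. The lower genes were the immunoglobulin receptor Fcgr3 (−0.90 ± 0.18), the natural killer receptor chain Klrd1 (−0.59 ± 0.18), Slamf7 (−0.56 ± 0.10), Trim30a (−0.51 ± 0.16), complement C5 (Hc, −0.49 ± 0.12) and Entpd4 (−0.42 ± 0.07). Without mouse633 Klrd1 (adjusted p = 0.0832) and Trim30a (0.0622) did not pass, and the other 4 did. Of the 22 mice, leaving out any 1 of 12 ended the call of Klrd1 and any 1 of 15 that of Trim30a.

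Among measured genes in chromosome order, 11 runs of at least 3 called genes in a row were found, and 7 runs had 1 direction. Genes without a cluster of 1 symbol were skipped, so members of a run need not be adjacent in the genome. The runs held 35 of the 997 called genes, among 14803 genes with a chromosome. How many such runs would arise if calls fell without regard to position was not tested. The longest, of 5 genes, held protocadherins of the beta cluster on chromosome 18, cell adhesion genes of neurons: Pcdhb7, Pcdhb8, Pcdhb9, Pcdhb10 and Pcdhb11 were higher in BALB/cJ by 0.68 to 1.01. In a run of 3 from the same cluster, Pcdhb2, Pcdhb3 and Pcdhb4 were higher by 0.32 to 1.07. These genes are close copies of each other, so probes may read more than 1 of them. On chromosome 17, H2-DMa lay in a run with Psmb9 (−0.50 ± 0.15) and Tap1 (−0.43 ± 0.13), which cut and transport peptides for MHC class I; the call of Psmb9 ended without any 1 of 5 mice (highest adjusted p = 0.0631, without mouse620) and that of Tap1 without any 1 of 10 (0.0807, mouse620). On chromosome 10, Eya4, higher in BALB/cJ, shared a run with the pantetheinases Vnn3 (−1.09) and Vnn1 (−0.97), both lower. The share of genes called ran from 4.05% on chromosome 19 to 9.22% on chromosome 18 among the autosomes, and was 5.47% on the X chromosome.

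Several genes of the airway lining were lower in BALB/cJ. Of 12 measured ciliated cell genes, 8 were lower and 0 higher (median −0.55), and of 11 club cell genes, 3 were lower and 0 higher (median −0.44). Among all genes 4.06% were lower and 2.68% higher. In RNA of a whole lobe, fewer cells of a type and less RNA per cell cannot be told apart.

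Foxj1, the transcription factor that starts the program of motile cilia, ranged from 7.32 to 8.41 (median 8.02) in BALB/cJ and from 7.74 to 9.29 (median 8.73) in C57BL/6J, with overlap (−0.53 ± 0.12, adjusted p = 0.00316). Dnah11, a dynein heavy chain that drives the beat, ranged from 4.54 to 5.49 (median 4.92) against 5.11 to 6.36 (median 5.72), with overlap (−0.71 ± 0.12, adjusted p = 2.01e-05). Ccdc39 (−0.71 ± 0.13) and Ccdc40 (−0.43 ± 0.08), which set the spacing of structures along the axoneme, the central apparatus genes Hydin (−0.59 ± 0.15) and Spag17 (−0.57 ± 0.12), the radial spoke gene Rsph1 (−0.61 ± 0.19) and the tektin Tekt2 (−0.35 ± 0.10) were lower too. The groups overlapped in all 8. Rsph1 did not pass when any 1 of 12 mice was left out (highest adjusted p = 0.0921, without mouse522), nor Tekt2 for any 1 of 4 (0.0573, mouse620), while the other 6 passed in all 22 such fits.

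The other 4 ciliated genes did not pass: Dnah5 (−0.57 ± 0.22), Dnaic1 (−0.23 ± 0.09), Tekt1 (−0.25 ± 0.13) and Spag6 (0.03 ± 0.11). Averaged over the 12 genes, the level of a mouse lay between 5.52 and 6.03 (median 5.77) in BALB/cJ and between 5.71 and 6.58 (median 6.35) in C57BL/6J. Within series 5 alone 7 passed (median −0.73), and within series 6 alone 1, Ccdc39 (median −0.33); a direct test of strain by number series called 0 of 16715 clusters by limma, with 896 at an unadjusted p under 0.05. In challenged mice 5 were lower (median −0.15). The counts without mouse633, without mouse531 and without both mouse530 and mouse531 were 8 each.

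Among club cell genes, Scgb1a1, the secretoglobin that names the cell, lay between 12.40 and 12.99 in BALB/cJ and between 12.60 and 13.12 in C57BL/6J (−0.15 ± 0.08, adjusted p = 0.419); neither it nor the cytochrome Cyp2f2 (−0.15 ± 0.17) passed. The secretoglobin Scgb3a2 ranged from 6.86 to 8.14 (median 7.63) in BALB/cJ and from 7.90 to 9.57 (median 8.66) in C57BL/6J, overlapping narrowly (−0.94 ± 0.20, adjusted p = 0.00066). Bpifb1, a secreted protein of the upper and large airways, spread widely, from 4.84 to 10.50 (median 7.28) in BALB/cJ and from 5.74 to 11.58 (median 9.46) in C57BL/6J (−2.16 ± 0.57, adjusted p = 0.00905). It did not pass in either number series alone (adjusted p = 0.161 and 0.219). The tight junction gene Cldn10 was lower by 0.38 on the log2 scale (−0.38 ± 0.08). Agr3, a protein disulfide isomerase of ciliated airway cells that was on none of the lists and was picked after its value was seen, differed by −1.54 ± 0.20.

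Of 69 genes on the lists of the distal lung and its vessels 4 passed (5.80%, against 6.74% of all clusters). Of 12 alveolar type II genes 0 passed (median −0.13), of 18 endothelial genes 0 (median 0.11) and of 12 smooth muscle genes 0 (median 0.00). Of 11 alveolar type I genes 1 was lower: Rtkn2, a rhotekin, ranged from 8.40 to 9.30 in BALB/cJ and from 9.37 to 10.02 in C57BL/6J (−0.81 ± 0.12, adjusted p = 2.59e-06). Of 16 fibroblast and matrix genes 3 were higher, fibronectin (Fn1, 0.79 ± 0.21), lumican (Lum, 0.71 ± 0.23) and Mfap4 (0.55 ± 0.12), and 0 lower (median −0.01). The call of Lum ended when any 1 of 18 mice was left out (highest adjusted p = 0.11, without mouse531).

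Of 30 genes of airway contraction, 3 were higher and 2 lower (median 0.04), beside 2.68% and 4.06% of all genes. Besides Bdkrb2, the muscarinic acetylcholine receptor Chrm3, through which nerves contract airway muscle, ranged from 5.03 to 6.14 (median 5.73) in BALB/cJ and from 5.01 to 5.48 (median 5.27) in C57BL/6J (0.48 ± 0.12, adjusted p = 0.00373). Rgs5, a brake on G protein signals in muscle and pericytes, ranged from 6.31 to 6.96 against 5.43 to 6.24, without overlap (0.62 ± 0.11, adjusted p = 0.000122). The histamine H2 receptor Hrh2 (−0.55 ± 0.17) and the phospholipase Plcb4 (−0.42 ± 0.13) were lower, but Hrh2 lost its call without any 1 of 15 mice (highest adjusted p = 0.0978, without mouse529) and Plcb4 without any 1 of 17 (0.102, mouse524).

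Some genes that mark an allergic lung spread widely within both groups. Of 14 measured mucous and goblet cell genes, 0 were higher and 1, Clca1, was lower (median −0.03), beside 2.68% and 4.06% of all genes. The goblet cell gene Clca1 ranged from 5.12 to 12.59 (median 5.87) in BALB/cJ and from 5.96 to 12.67 (median 7.73) in C57BL/6J, and differed by −2.27 ± 0.71 (adjusted p = 0.0387). The highest BALB/cJ value was that of mouse633, and the next mouse lay at 7.74, a level that 5 of 11 C57BL/6J controls exceeded, 4 of them of series 6. Without mouse633 the difference was −2.86 (adjusted p = 0.00116), and without mouse644, the highest C57BL/6J control, it was −1.90 (adjusted p = 0.109). The call was lost in 13 of 22 fits that each left out 1 mouse. Challenged BALB/cJ mice had a median of 11.76, below mouse633.

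Of 14 genes of alternatively activated macrophages, 1 was higher (Fn1) and 4 lower (median 0.07), beside 2.68% and 4.06% of all genes. Chil3, a chitinase-like protein of alveolar macrophages, ranged from 7.32 to 12.20 (median 8.79) in BALB/cJ and from 9.08 to 11.82 (median 10.96) in C57BL/6J, and differed by −1.53 ± 0.35 (adjusted p = 0.00206). In C57BL/6J its level was 9.08 to 10.21 in series 5 and 10.96 to 11.82 in series 6. Retnla, which type 2 cytokines induce, ranged from 8.17 to 12.97 (median 9.92) against 9.57 to 12.78 (median 11.15), and differed by −1.25 ± 0.35 (adjusted p = 0.0186). In both genes mouse633 was the highest BALB/cJ control, and without it the differences were −1.80 and −1.55. The chemokines Ccl17 (−0.94 ± 0.29) and Ccl22 (−0.62 ± 0.18), ligands of one receptor on T helper cells, were lower as well. Within series 5 alone 0 genes of this list passed, and within series 6 alone 1 passed as higher and 1 as lower. Ccl17 did not pass without any 1 of 9 mice (highest adjusted p = 0.087, without mouse631), Ccl22 without mouse621 (0.0503), and Retnla without mouse513 or mouse644 (highest 0.0517).

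In other genes of this kind mouse633 stood high and the strain difference did not pass. Chil4, another chitinase-like protein, was at 10.60 in mouse633 and at most 4.72 in the other BALB/cJ controls (−1.09 ± 0.81, adjusted p = 0.638; −1.75 without mouse633, adjusted p = 0.174). Rnase2a, an eosinophil-associated ribonuclease, was at 10.45 against at most 4.62, arginase (Arg1) at 9.74 against 5.51, and the anion exchanger Slc26a4 at 9.54 against 5.06. Each of these lay above the median of challenged BALB/cJ mice, which was 9.23 for Chil4, 8.37 for Rnase2a, 7.44 for Arg1 and 8.38 for Slc26a4. Among C57BL/6J controls mouse644 was the highest in Chil4 (10.41, next 6.06), Rnase2a (7.31, next 5.90) and Slc26a4 (7.51, next 6.22), and also in Clca1, Bpifb1, Chil3 and Retnla. Without mouse644 Chil3 (−1.45) and Bpifb1 (−1.90, adjusted p = 0.0284) still passed.

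**Figure D4:**
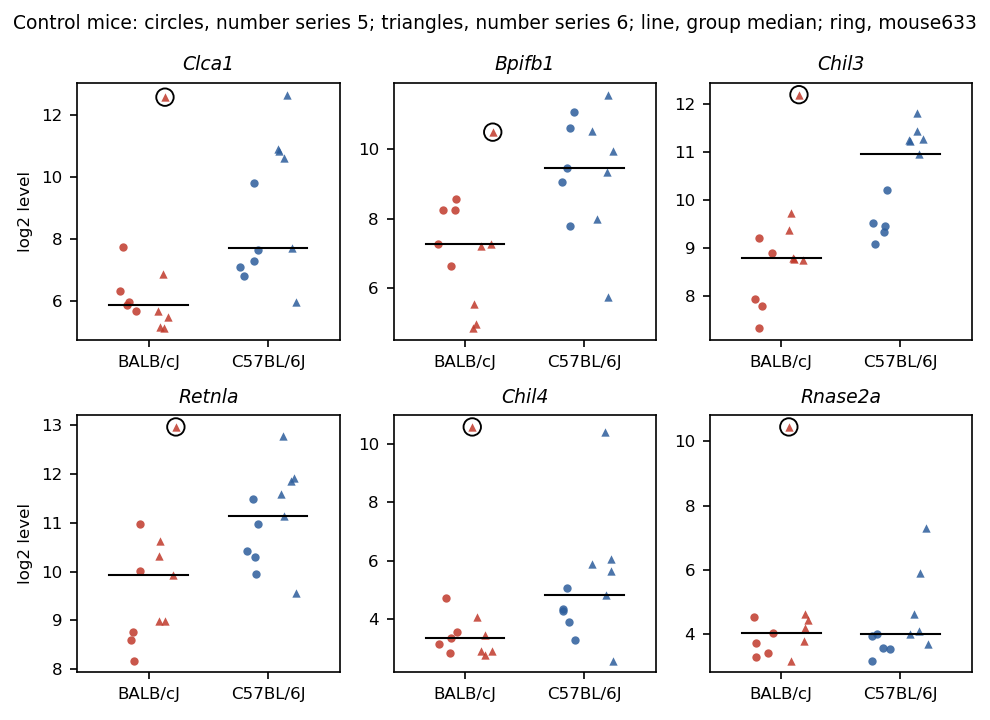
Deposited log2 levels of 6 genes of the allergic lung in the 22 control mice, BALB/cJ in red and C57BL/6J in blue, with circles for number series 5, triangles for series 6, lines at group medians and a ring around mouse633. In all 6 genes mouse633 is the highest BALB/cJ control, at 12.59 in Clca1 and 10.45 in Rnase2a.

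Of 121 genes on the lists of leukocytes and their signals 8 passed (6.61%, against 6.74% of all clusters). Of 15 type 2 cytokine and receptor genes 0 passed (median 0.01), of 9 eosinophil genes 0 (median 0.16, or −0.02 without mouse633), of 13 neutrophil genes 0 (median −0.08) and of 11 natural killer and cytotoxic genes 0 (median −0.04). Of 15 T cell genes 1 passed as higher, Cd3e, a chain of the T cell receptor complex (0.48 ± 0.12). Of these 15 differences 14 lay above 0 and 1 below (median 0.15). Of 11 mast cell and basophil genes 1 passed as higher, the stem cell factor receptor Kit (0.48 ± 0.11), with 9 above 0 and 2 below (median 0.19). Over all genes 8710 lay above 0 and 6119 below (median 0.03). Of 17 macrophage and monocyte genes 2 were lower, the scavenger receptor Marco (−0.54 ± 0.12) and the sialic acid receptor Siglec1 (−0.45 ± 0.13). Of 31 chemokine genes 4 were lower, Ccl17, Ccl22, the platelet chemokine Ppbp (−0.90 ± 0.25) and Cxcl14 (−0.53 ± 0.14).

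Of 18 interferon response genes 3 were lower in BALB/cJ and 0 higher (4.06% and 2.68% of all genes), with a median of −0.30. These were Bst2, tetherin, which holds budding viruses at the membrane (−0.74 ± 0.13), the guanylate binding protein Gbp3 (−0.54 ± 0.15) and the nucleotide kinase Cmpk2 (−0.52 ± 0.17), whose call ended without any 1 of 15 mice (highest adjusted p = 0.0953, without mouse620). In series 5 alone 0 passed and in series 6 alone 7. Challenged mice had 14 of 18 lower with a median of −0.69, beside 27.4% of all genes called in either direction there. The test of strain by challenge called none of the 18. Apobec3, a restriction factor against retroviruses whose allele is known to differ between these strains, was picked after its value was seen; it ranged from 6.47 to 7.27 in BALB/cJ and from 7.97 to 8.66 in C57BL/6J (−1.47 ± 0.09, adjusted p = 1.15e-18).

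Metabolic and clock genes held a few larger differences. For the counts in this paragraph, the shares over all genes are 2.68% higher and 4.06% lower. Gsto1, a glutathione transferase, ranged from 8.58 to 10.30 (median 8.87) in BALB/cJ and from 9.29 to 11.18 (median 10.64) in C57BL/6J (−1.31 ± 0.23, adjusted p = 4.79e-05), while Gstm2 was higher by 0.51 ± 0.14; 1 of 17 genes of this family was higher and 1 lower. Arntl, the clock transcription factor also called Bmal1, ranged from 5.20 to 6.93 (median 5.55) against 5.69 to 7.90 (median 7.45), with overlap (−1.22 ± 0.20, adjusted p = 1.29e-05), and its partner Clock has a paralog, Npas2, that differed by −0.24 ± 0.08 and did not pass without any 1 of 13 mice (highest adjusted p = 0.109, without mouse643). The remaining 8 of 10 clock genes did not pass (median of the list 0.22). Without mouse633 Nr1d2 (0.42, adjusted p = 0.0324) and Per3 (0.42, adjusted p = 0.0101), repressors of the clock, passed as higher. The labels do not state the hour at which lungs were taken. Of 27 eicosanoid genes 1 was higher and 1 lower (median 0.06). Pla2g2d, a secreted phospholipase, was higher by 0.63 ± 0.10 without overlap, and Lta4h, which makes leukotriene B4, was lower (−0.45 ± 0.11). Of 15 Toll-like receptor genes 1 was higher and 0 lower (median 0.04): Tlr6, a receptor for bacterial lipopeptides (0.74 ± 0.10). Of 41 lists 14 held no called gene, among them heart muscle (0 of 7), skeletal muscle (0 of 8), fat (0 of 8) and genes used for normalization (0 of 8).

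The strain differences of controls were looked up in the challenged mice, which share no mouse with them. Both differences came from the same fit, with a shared error estimate and number series term for each cluster. Passing in controls and passing in challenged mice were therefore not independent. Of the 1126 clusters, 1071 had the same sign there (95.1%) and 792 also passed (70.3%, against 27.0% of all clusters); 0 passed with the opposite sign. Of the 15589 clusters not called in controls, 54.4% had the same sign. Conversely, of 4509 clusters called in challenged mice, 792 (17.6%) passed in controls. Among the 111 with at least 2-fold, 109 had the same sign and 100 passed. Number series 5 and 6 likewise share no mouse: of 275 clusters called in series 5 alone (1.65%), 271 had the same sign in series 6 and 203 passed there, against 5.35% of all clusters; of those not called in series 5, 59.6% had the same sign in series 6. Of the 894 called in series 6 alone, 845 had the same sign in series 5 and 203 passed there (22.7%).

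**Figure D5:**
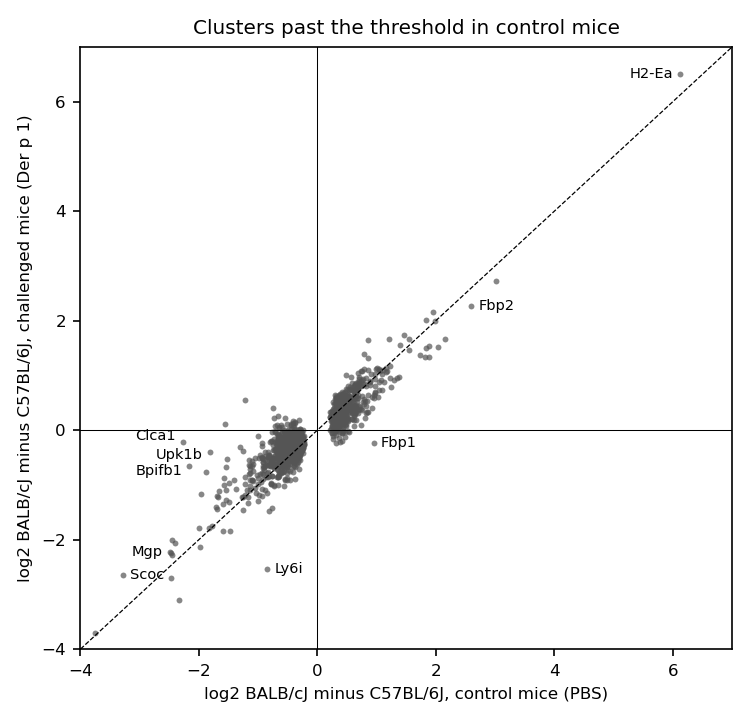
For the 1126 clusters past the threshold in control mice, the log2 difference between BALB/cJ and C57BL/6J in controls (horizontal) is plotted against that in challenged mice (vertical), with the diagonal dashed. Of these clusters, 1071 lie on the same side of 0 on both axes; Clca1 and Bpifb1 lie near 0 in challenged mice.

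A direct test of whether the strain difference changed with challenge called 6 clusters by limma (0.0359%), with 2892 at an unadjusted p under 0.05. Among them Fbp1, the liver form of fructose bisphosphatase, ranged from 5.41 to 6.18 in BALB/cJ and from 4.48 to 5.49 in C57BL/6J controls (0.95 ± 0.14), whereas the challenged mice gave −0.23 ± 0.13. Its BALB/cJ medians were 5.64 in controls and 5.65 after challenge, and those of C57BL/6J 4.64 and 5.94. Upk1b had medians of 7.70 and 8.33 in BALB/cJ and of 9.67 and 8.59 in C57BL/6J, so that its control difference of −1.81 was −0.40 ± 0.17 in challenged mice. Azgp1 had medians of 4.40 and 4.33 in BALB/cJ and of 6.07 and 5.17 in C57BL/6J.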

How the data were processed

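Per the labels, the deposited log2 values are RMA values of a core-exon analysis that the authors ran in Partek software, 1 value per transcript cluster and array; the version is not stated in the labels. Whether probes that overlap strain variants were masked is not stated, and probe sequences were not analysed here. An array has no read depth; repeat arrays of a mouse had a median SD of 0.19 on the log2 scale. Of 16715 clusters, the platform annotation gives 14965 with 1 gene symbol, 1010 with several and 740 with none; 14909 matched the RefSeq table (GRCm38.p6), which gave chromosomes and promoters. A gene is its brightest cluster (14830 genes).

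The mean of a mouse's arrays entered limma 3.58.1 in R 4.3.3, with 4 group means of all 48 mice and the number series as a covariate; p-values carry the Benjamini-Hochberg adjustment across the 16715 clusters. The fit was tested on simulated data. Apart from the number series, noise in them was independent between clusters, so variation that the clusters of an array share was not covered. Named are the 20 largest differences in each direction with 1 symbol, list members and runs of at least 3 called neighbours among measured genes. The comparison and the lists were chosen with earlier results of these data known. Each mouse is 1 replicate.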

Additional observations from a re-analysis of the deposited data

Results flagged for a closer look

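The strain difference depended on challenge, by limma's test of the difference of differences, in 6 clusters. The value given is the difference in challenged mice minus that in controls. It was 1.41 ± 0.26 for Upk1b (adjusted p = 0.0109) and 1.11 ± 0.22 for Azgp1 (0.0288), so the strains lay closer together after challenge. The C57BL/6J medians of both genes were lower in challenged mice than in controls. The BALB/cJ median was higher in challenged mice for Upk1b and nearly the same for Azgp1. For Fbp1 it was −1.18 ± 0.19 (0.00342). Ly6i, a GPI-anchored protein gene of the Ly6 family, gave −1.69 ± 0.34 (0.0288): it was lower by 0.85 on the log2 scale in BALB/cJ controls (−0.85 ± 0.25) and at −2.54 ± 0.23 in challenged mice. For Fcrl5, an Fc receptor-like gene of B cells, it was −0.74 ± 0.14 (0.0109), with a control difference of 0.09 ± 0.10. Cluster 6860119, which carries no single gene symbol, gave −0.46 ± 0.09 (0.0288). Without mouse633 all 6 passed (highest adjusted p = 0.0418), and Pttg1, Anxa8, Trpv4 and cluster 6933072 passed as well.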

How the results depend on the processing

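The 1126 clusters past the threshold in controls became 275 in number series 5 alone, 644 when the dimmest 50% of clusters were left out (8358 tested) and 2642 with array weights, and lay between 1005 and 1194 when 1 control mouse was left out; 779 passed without the number series, 894 in series 6 alone and 1561 with array SD as a covariate. A fit of the 22 control mice alone called 1387 clusters, of which 1090 were among the 1126. Without the number series 2222 clusters passed in challenged mice (4509 with it) and 2 in the test of strain by challenge (6 with it), where 10 passed without mouse633. Ciliated cell genes past the threshold were 4 without the number series and 1 in series 6 alone. Of the 40 genes with the largest differences, 37 kept their call and 0 reversed in up to 38 alternatives. Clca1 lost its call in 17 (highest adjusted p = 0.28 by limma), Bpifb1 in each series alone, and Olfr1033 in series 5 alone (0.351). The 40 had been picked by their size in the main fit of the same mice. Of the 64 list members past the threshold, 44 kept their call whichever single mouse was left out, and 7 lost it without mouse633. The causes were not tested. The clusters without overlap were 131, and 120 to 176 under 4 alternatives chosen after seeing the data, as were the fits without mouse530 and mouse531 and the array SD for lists. No paired analysis was possible because the numbers in the titles count repeat arrays of 1 mouse and no label ties a mouse to one of another group. The lowest values may be background, so differences of dim genes may be too small.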

Other observations

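Some called genes outside the lists, picked after their values were seen, had groups that did not overlap. Alad, which makes porphobilinogen in heme synthesis, ranged from 8.74 to 9.74 in BALB/cJ and from 7.59 to 8.65 in C57BL/6J (1.16 ± 0.10, adjusted p = 1.28e-13). Alpl, tissue-nonspecific alkaline phosphatase, was higher by 1.04 ± 0.09. Cyp2r1, a vitamin D 25-hydroxylase, ranged from 3.76 to 4.45 in BALB/cJ and from 5.05 to 6.19 in C57BL/6J (−1.54 ± 0.12). The immune checkpoint ligand Vtcn1 (−1.55 ± 0.16), Tmem254a (−1.50 ± 0.12) and the phosphodiesterase Gdpd2 (−1.38 ± 0.11) were lower without overlap. Aplnr, the apelin receptor of endothelial cells, was higher by 1.16 ± 0.16 with overlapping groups, beside 0 of 18 endothelial genes past the threshold. All 7 had the same sign and passed in challenged mice, as did 70.3% of the 1126 clusters called in controls. Of all clusters 27.0% passed in challenged mice.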
